A study of Rattus norvegicus with 22 samples.

Results

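Tempol given after a spinal contusion was compared with contusion alone in rat spinal cord at thoracic level 10. All 3 arrays labelled tempol, without those that combine tempol and BSO, were set against the 2 arrays of untreated contusion, which makes 5 of the 22 arrays of the series. All 31042 probe sets other than the array's own controls were compared, of 31099 on the array, and they cover 14217 genes with a symbol.

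The tempol rats were contused with a 10 g weight that fell 25 mm onto the cord through a tip 2.5 mm wide, and were given tempol at 275 mg/kg into the abdomen 20 min later. The contusion rats had the same injury and no drug. The cord was collected 24 h after the injury in both groups, perfused with buffered saline before removal. Beside them stand 3 arrays of contused rats given BSO (buthionine sulfoximine, 150 mg/kg, 24 h before the injury) and tempol, 3 of contused rats given BSO alone, 2 given clenbuterol (150 mg/kg), and 3 given X-rays (10 Gy), the last 2 treatments at 20 min after the injury. There are also 3 arrays each of laminectomy and of normal cord. One text gives the doses and times for every sample, and neither strain, sex nor age of the rats was given in the sources used here. Whether each array stands for 1 animal is also not given, so that the tests weigh differences against the variation among these samples, part of which may be technical.

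Tempol is a small cell-permeable nitroxide that acts like superoxide dismutase, converting superoxide and limiting the hydroxyl radicals that follow from it. After a contusion, blood, dying cells and invading neutrophils and macrophages release iron and oxidants, and the oxidation of lipids spreads the damage beyond the first lesion. Cells answer oxidants through the transcription factor NRF2, which turns on genes of glutathione synthesis, heme breakdown and NADPH supply, and BSO blocks the first enzyme of glutathione synthesis.

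The arrays carried the markers of spinal cord. Gfap, the intermediate filament of astrocytes, had signals of 8054.3, 13923.5 and 13258.6 on the tempol arrays, against 12101.0 and 12442.3 on the contusion arrays. Mbp, the myelin basic protein, had 20502.5, 31714.1 and 47534.6 on tempol arrays, against 22147.7 and 40004.4 on contusion arrays. Neither gene separated the groups, with differences (tempol minus contusion, log2) of -0.10 ± 0.42 for Gfap and 0.08 ± 0.57 for Mbp (SE, n = 3 and 2). The 14 genes of the skeletal muscle list, which would mark tissue from outside the cord, had mean log2 signals of 6.46, 6.42 and 6.44 on tempol arrays, against 6.27 and 6.74 on contusion arrays, and none was listed at 0. Their signals were uneven. Myh1, a myosin heavy chain, ranged from 1031.4 to 4854.9 on tempol arrays and had 859.0 and 4178.2 on contusion arrays. Tnnt3, a troponin, ranged from 787.1 to 1310.2 on tempol arrays, above the 341.0 and 731.5 on contusion arrays. Atp2a1 and Ckm stood at 330.2 to 519.1 on tempol arrays and 405.5 to 485.4 on contusion arrays, whereas Myh2 and Mb stood at 5.5 to 36.6 on tempol arrays and 13.1 to 21.3 on contusion arrays. The part of muscle tissue in the results was not tested. In such bulk tissue fewer cells of a type and less RNA per cell cannot be told apart.

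No gene passed the test between tempol and untreated contusion. With limma on the log2 signals, 0 of 31042 probe sets (0.0%) had an adjusted p below the threshold of 0.05, and the smallest adjusted p was 0.9999, so no gene named below had a lower one in this comparison. An unadjusted p below 0.05 was found for 875 probe sets (2.82%), of which 494 were higher (1.59%) and 381 lower (1.23%) with tempol, where 1552.1 would be reached if p-values were spread evenly. The arrays of the groups did not overlap for 2440 probe sets that were higher with tempol (7.86%) and for 2591 that were lower (8.35%). With 3 arrays against 2 an exact permutation test of a single gene cannot give a two-sided p below 0.2. If the group labels had no bearing on the signal, a separation in either direction would have this probability of 0.2 for each probe set.

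Without adjustment for the number of probe sets, the median 95% interval of a difference reached 1.585 to either side on the log2 scale, a 3.0-fold change, and 1.372 among the 19193 probe sets with a mean signal of at least 100 over all arrays. A call after adjustment needs a larger difference than this interval gives. Over all probe sets the median difference was -0.02, and 95% lay within 1.53 of 0. The tempol arrays were no more alike than they were like the contusion arrays: their log2 signals correlated at 0.737 to 0.786 with one another, at 0.763 to 0.817 with the contusion arrays, and the contusion arrays at 0.785 with each other.

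**Figure D1:**
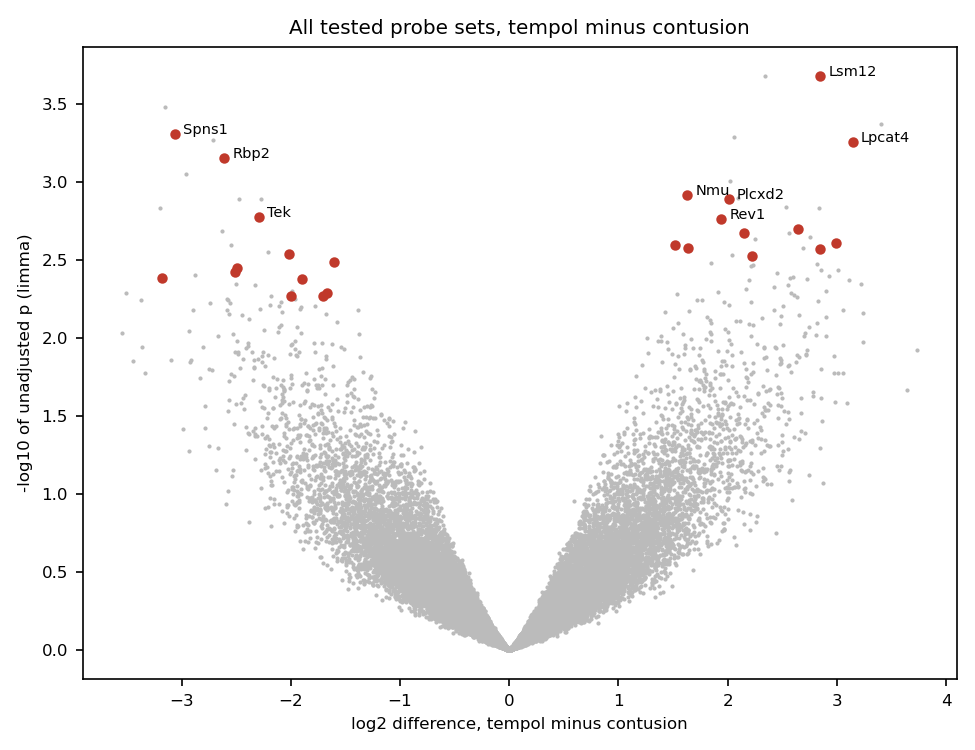
Each point is 1 of 31042 probe sets, with the log2 difference, tempol minus contusion, on the horizontal axis and -log10 of the unadjusted limma p on the vertical axis. Red points are the 24 genes with the smallest p among those whose arrays do not overlap, and none passes after adjustment (smallest adjusted p 0.9999).

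No antioxidant enzyme passed the test, and members stood on both sides of 0. Of 17 genes for superoxide, peroxide and thioredoxin the arrays did not overlap for 2 that were lower with tempol, Cat and Prdx5, and for 1 that was higher, Selenow, a small selenoprotein. Of 25 genes that make or use glutathione they did not overlap for 4 lower genes, Slc3a2, Gpx3, Gsta3 and Gstm5, and for 1 higher gene, Ggt5. Among all 14217 genes 8.61% had such an arrangement with tempol lower and 7.76% with tempol higher. Hmox1, the heme oxygenase that degrades free heme and a leading NRF2 target, had signals of 1343.8, 1308.1 and 1611.1 with tempol, against 2058.0 and 1877.4 with contusion alone. All 3 tempol arrays lay below both contusion arrays, yet the difference was -0.47 ± 0.45 with a 95% interval of -1.43 to 0.48. Without a contusion the geometric mean of Hmox1 was 535.3 after laminectomy and 236.8 in normal cord, or 460.2 and 332.5 without 1 array of each group (laminectomy 2 and normal 1) that stood apart from all others.

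Cat, the catalase that breaks down hydrogen peroxide, had signals of 443.4, 460.7 and 460.8 with tempol, against 570.8 and 805.7 with contusion alone. Its groups did not overlap either, and its difference of -0.58 ± 0.57 was about as large as its error. Prdx5, a peroxiredoxin of mitochondria and peroxisomes, had 1029.0, 1353.2 and 1017.7 with tempol, against 1914.2 and 1743.4 with contusion (-0.70 ± 0.42). Gpx3, the secreted glutathione peroxidase, differed by -0.68 ± 0.49. Selenow had 253.3, 279.7 and 423.6 with tempol, against 194.8 and 232.6 with contusion (0.55 ± 0.66).

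The superoxide dismutases, whose activity tempol imitates, showed no separation. Sod1, the cytosolic enzyme, had 598.2, 336.7 and 661.0 with tempol, against 627.3 and 785.7 with contusion (-0.46 ± 0.91). Sod2, the mitochondrial one, had 142.5, 149.1 and 158.8 with tempol, between the contusion arrays at 457.1 and 83.0 (-0.38 ± 0.78). Sod3, the extracellular one, differed by 0.11 ± 0.90. The contusion arrays disagreed on Sod2 by more than the groups did.

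Glutathione synthesis, the pathway that BSO blocks, also overlapped between the groups. Gclc, the catalytic subunit of its first enzyme, had 622.1, 1277.3 and 669.1 with tempol, against 837.8 and 612.6 with contusion (0.18 ± 0.54, 95% interval -0.96 to 1.31). Gclm, the regulatory subunit, differed by -0.52 ± 0.65, and Slc7a11, the cystine importer that supplies the pathway, by -0.32 ± 0.68. Among other NRF2 targets Nqo1, a quinone reductase, differed by -0.27 ± 0.42, Txnrd1, the cytosolic thioredoxin reductase, by -0.21 ± 0.44 and Srxn1, which repairs peroxiredoxins, by 0.68 ± 0.95. Srxn1 ranged from 399.5 to 3655.9 on the tempol arrays and from 362.4 to 2126.6 on the contusion arrays, and its other probe sets gave -0.02 ± 0.95 and -0.62 ± 0.54.

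Counted as a list, 17 of the 20 measured NRF2 targets were lower with tempol and 3 higher, none past the test, with a median of -0.29. Among all 14217 genes 47.5% were higher, with a median of -0.03. The arrays of 2 of the 20 did not overlap, both lower with tempol: Hmox1 and Taldo1, the transaldolase of the pentose phosphate pathway (-0.83 ± 0.53). Of all genes, 8.61% had such an arrangement in this direction. The mean log2 signal of the list was 8.49, 8.71 and 8.70 on the tempol arrays, against 8.93 and 8.82 on the contusion arrays. The 11 arrays of the other treated groups ran from 8.37 to 9.09, so both groups lay inside that range. Against the mean of the other treated groups the NRF2 median was -0.19, with 5 of 20 genes higher, where 50.2% of all genes were.

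Of 25 genes that make or use glutathione, 11 were higher and 14 lower (median -0.04). The largest difference was in Gsta3, an alpha-class glutathione transferase, with 10.5, 42.0 and 24.2 with tempol, against 207.5 and 130.0 with contusion (-2.90 ± 0.95). In rats given BSO the same gene differed by 1.70 ± 0.85 the other way (tempol plus BSO minus BSO). Of 17 genes for superoxide, peroxide and thioredoxin 7 were higher and 10 lower (median -0.31). The metallothioneins, zinc-binding scavengers of radicals, did not separate: Mt2A ranged from 3527.0 to 24682.5 on the tempol arrays, with the contusion arrays at 15236.4 and 12911.6.

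Enzymes that make radicals or oxidized lipids were mixed. Alox15, the lipoxygenase that oxidizes polyunsaturated lipids, had 51.6, 47.0 and 43.4 with tempol, against 249.8 and 161.1 with contusion (-2.09 ± 0.82). In rats given BSO it was higher on average with tempol, by 1.90 ± 0.73. Nos2, the inducible nitric oxide synthase, had 345.8, 189.8 and 63.4 with tempol, against 89.9 and 57.7 with contusion (1.16 ± 0.80), and its groups overlapped. Cybb, the catalytic subunit of the phagocyte NADPH oxidase, differed by 0.00 ± 0.58, and Ptgs2, the inducible cyclooxygenase, by -0.43 ± 0.66. Over the 19 genes of this kind 9 were higher and 10 lower (median -0.10).

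Neuronal genes stood mostly higher with tempol than with contusion alone, without any passing the test. Nefl, the light neurofilament of axons, had signals of 1891.0, 1694.9 and 4055.7 on tempol arrays, against 1082.3 and 1046.6 on contusion arrays. All tempol arrays lay above both contusion arrays, by 1.14 ± 0.56 on the log2 scale or 2.21-fold (95% interval -0.02 to 2.31). A second probe set of Nefl gave 0.41 ± 0.52.

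Slc17a6, the vesicular glutamate transporter of excitatory neurons in the cord, had 1038.6, 940.1 and 1550.8 with tempol, against 601.1 and 663.1 with contusion (0.86 ± 0.42). Rab3a, a GTPase of synaptic vesicles, had 410.1, 388.3 and 813.2 with tempol, against 102.9 and 254.3 with contusion. Its difference was 1.65 ± 0.69, and its other probe set gave 1.47 ± 0.61. Tubb3, the tubulin of neurons, showed 0.93 ± 0.44 with one probe set and -0.12 ± 0.41 with the other. Against this direction stood Gad2, a GABA-synthesizing enzyme of inhibitory neurons, with 55.9, 137.2 and 123.2 with tempol and 371.3 and 351.0 with contusion (-1.88 ± 0.93), and Vamp2, a synaptic vesicle SNARE, with -1.31 ± 0.73 (0.08 ± 0.71 with its other probe set).

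Of 32 measured neuron genes 26 were higher with tempol, none past the test, with a median of 0.39, where 47.5% of all genes were higher. The groups' arrays did not overlap for 7 that were higher and 1 that was lower, while 7.76% and 8.61% of all genes had these arrangements. Of 33 genes of synapses and channels 21 were higher (median 0.44), with 7 higher and 4 lower without overlap. The neuron list's mean log2 signal was 8.87, 9.10 and 9.15 on tempol arrays, against 8.52 and 8.89 on contusion arrays. The first contusion array was the low one: without it the neuron median was 0.06 and the synapse median 0.07, and without the second they were 0.64 and 0.52. The first contusion array also lay below all 11 arrays of the other treated groups, which ran from 8.79 to 9.19 on the neuron list, and the tempol arrays lay inside that range. The hybridization spikes, RNAs added to each sample before hybridization, had mean log2 signals of 10.54, 11.55 and 12.21 on tempol arrays, against 10.64 and 11.99 on contusion arrays, so the array with the lowest neuron mean in each group also had the lowest spikes. With the spike level as a covariate the neuron median was 0.33.

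**Figure D2:**
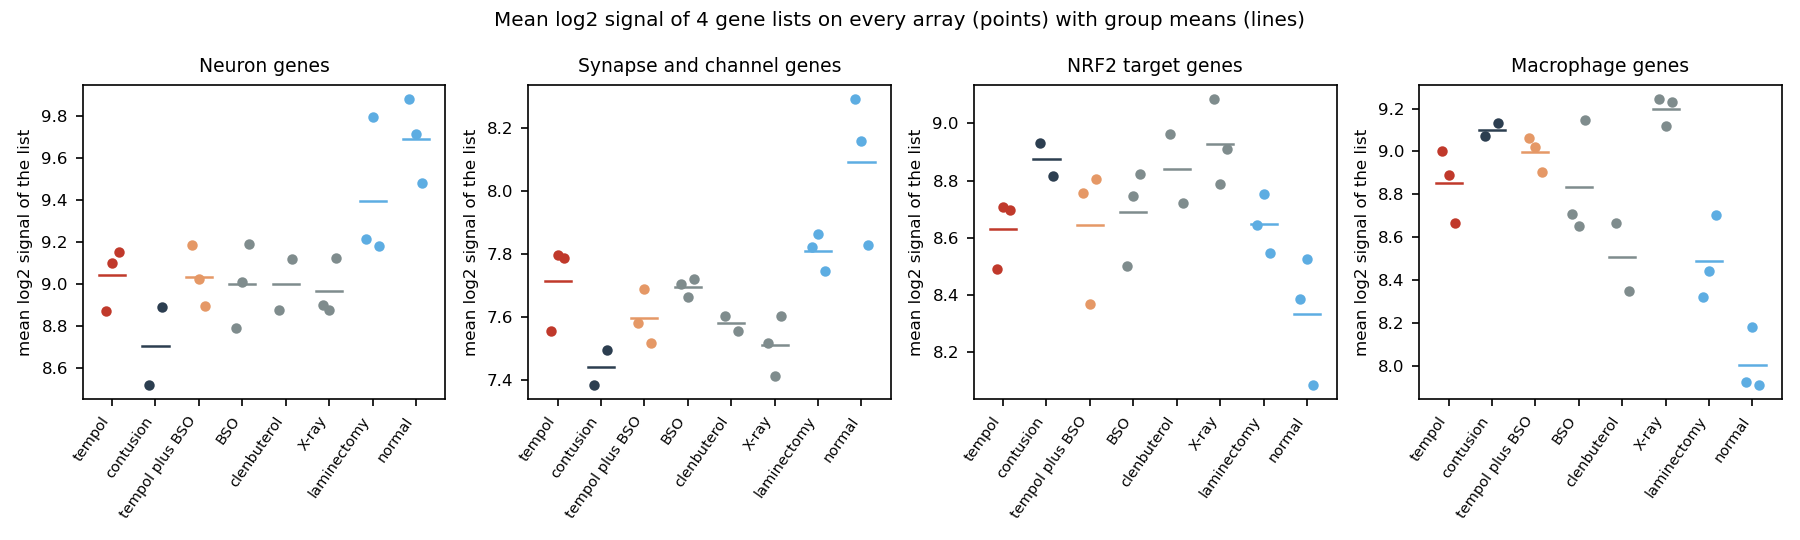
Mean log2 signal of 4 gene lists on each of the 22 arrays (points), with group means (lines), tempol and contusion at the left. The neuron list runs from 8.87 to 9.15 on tempol arrays and stands at 8.52 and 8.89 on contusion arrays, with normal cord above both.

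Set beside the other injured groups, the contusion arrays were the low end for Nefl. Its geometric means were 2351 with tempol, 2220 with tempol plus BSO, 1911 with clenbuterol, 1769 with BSO, 1651 with X-rays and 1064 with contusion alone. Laminectomy had 4467 and normal cord 5527, or 3716 and 4669 without the 2 arrays that stood apart. Against the mean of the other 4 treated groups the tempol arrays differed in Nefl by 0.33 ± 0.40 and in Slc17a6 by 0.66 ± 0.30. The median over the neuron list in that comparison was 0.02, with 17 of 32 genes higher.

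Macrophage genes stood mostly lower with tempol than with contusion alone. Arg1, the arginase of alternatively activated macrophages, had signals of 402.0, 348.2 and 450.1 with tempol, against 894.6 and 778.4 with contusion. The groups did not overlap and differed by -1.07 ± 0.52 (0.477-fold, 95% interval -2.17 to 0.03). Spp1, the osteopontin of lesion macrophages, had 1684.2, 1811.0 and 1126.2 with tempol, against 2615.9 and 2465.0 with contusion (-0.75 ± 0.46). Lyz2, the macrophage lysozyme, had 6724.2, 7801.8 and 7153.8 with tempol, against 10504.0 and 10837.5 with contusion (-0.56 ± 0.41). Among the genes of the list that stood higher were Adgre1 (1.27 ± 0.89), Ms4a7 (0.78 ± 0.57), Mrc1 (0.70 ± 0.69) and Itgam (0.33 ± 0.85). None of the genes named here passed the test.

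Of 21 macrophage genes 14 were lower and 7 higher with tempol (median -0.38), where 47.5% of all genes were higher. The arrays did not overlap for 7 lower genes, which were Lgals3, Spp1, Lyz2, Arg1, Cd163, Fcgr3a and Apoe, and for 1 higher gene, Ms4a7, beside 8.61% and 7.76% of all genes. The list's mean log2 signal was 9.001, 8.891 and 8.666 with tempol, against 9.072 and 9.131 with contusion. The other treated arrays spanned 8.35 to 9.25, lowest with clenbuterol and highest with X-rays. Against the mean of the other treated groups the macrophage median was -0.03, with Arg1 at -0.11 ± 0.37 and Spp1 at 0.05 ± 0.33. Microglia genes had 6 of 14 higher (median -0.24), and neutrophil genes 4 of 13 (median -0.26).

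**Figure D3:**
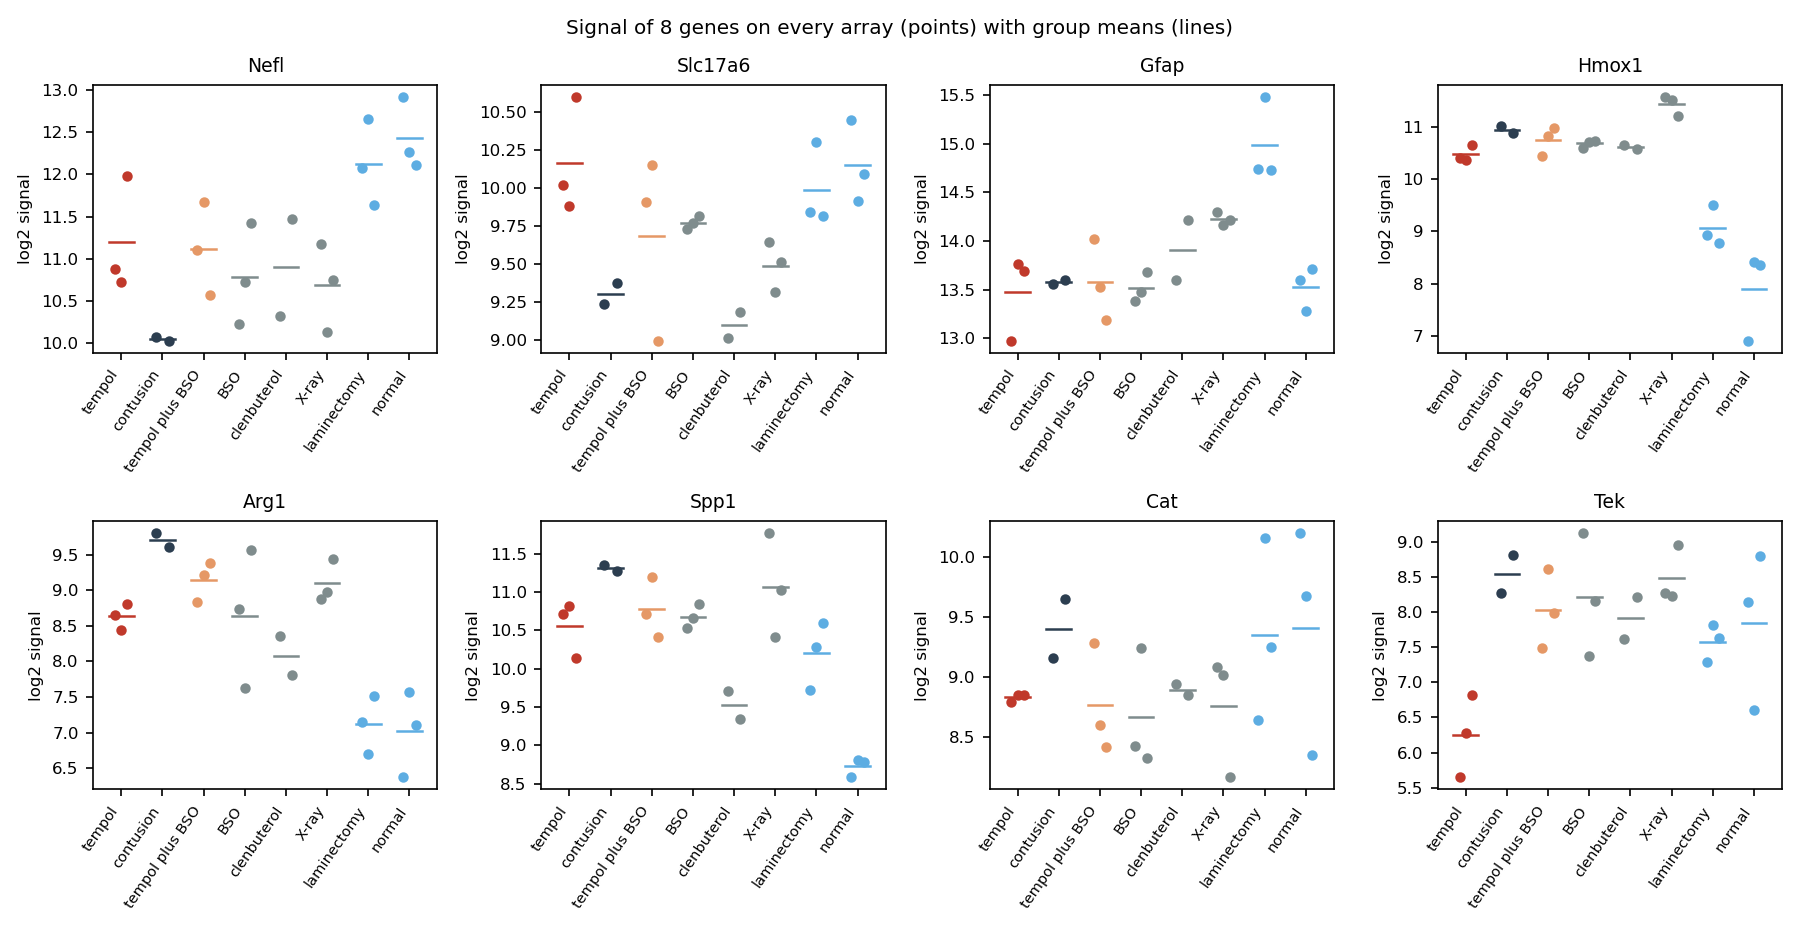
Log2 signal of 8 genes on each of the 22 arrays (points), with group means (lines), tempol and contusion at the left. Nefl and Slc17a6 lie higher and Hmox1, Arg1, Spp1, Cat and Tek lower on all 3 tempol arrays than on both contusion arrays, while Gfap overlaps.

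Of 32 cytokines and chemokines 13 were higher and 19 lower with tempol (median -0.04). The arrays did not overlap for 0 higher and 5 lower genes (Il1a, Csf3, Ccl6, Ccl7 and Pf4), beside 7.76% and 8.61% of all genes. Against the other treated groups 8 of the 32 were higher (median -0.35), where 50.2% of all genes were. The list's mean log2 signal was 7.710, 8.014 and 7.816 with tempol and 7.832 and 8.001 with contusion alone. The 11 other treated arrays ran from 8.006 to 8.381. Both untreated contusion arrays lay below that range, the second narrowly, as did tempol 1 and tempol 3. Tempol 2 lay within it, near its lower end. Ccl6, a chemokine of myeloid cells in rodents, had 309.5, 261.9 and 739.5 with tempol, against 803.6 and 1294.7 with contusion (-1.38 ± 0.62). From the other treated groups Ccl6 differed by -1.40 ± 0.44. Ccl5, which attracts T cells, had 686.9, 865.8 and 84.2 with tempol, against 136.6 and 31.4 with contusion (2.49 ± 0.83), so the tempol 3 array lay between the contusion arrays. Ccl2, which attracts monocytes, differed by -0.75 ± 0.70, Il1b by 0.32 ± 0.80, Il6 by -0.76 ± 0.90 and Tnf by -0.28 ± 0.56, all overlapping. The other probe set of Tnf gave 1.08 ± 0.92.

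No glial gene passed the test. Of 17 astrocyte genes 9 were higher (median 0.00), of 22 reactive astrocyte genes 9 (median -0.09) and of 19 oligodendrocyte and myelin genes 8 (median -0.24). Timp1, the metalloproteinase inhibitor made by reactive astrocytes, had 3290.5, 3870.0 and 9695.2 with tempol, against 5995.0 and 9570.7 with contusion (-0.61 ± 0.70). Slc1a2, the main glutamate transporter of astrocytes, had 47.2, 50.5 and 13.8 with tempol, against 210.4 and 663.3 with contusion (-3.54 ± 1.22). Its other probe set gave -0.21 ± 0.80, so that the large value belonged to 1 of 2 probe sets. Against the other treated groups 1 of 19 myelin genes was higher with tempol (median -0.34), where 50.2% of all genes were. The myelin list's mean log2 signal was 9.568 with tempol and 9.655 with contusion alone. It was 9.678 with BSO, 9.759 with tempol plus BSO, 10.097 with X-rays and 10.323 with clenbuterol.

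**Figure D4:**
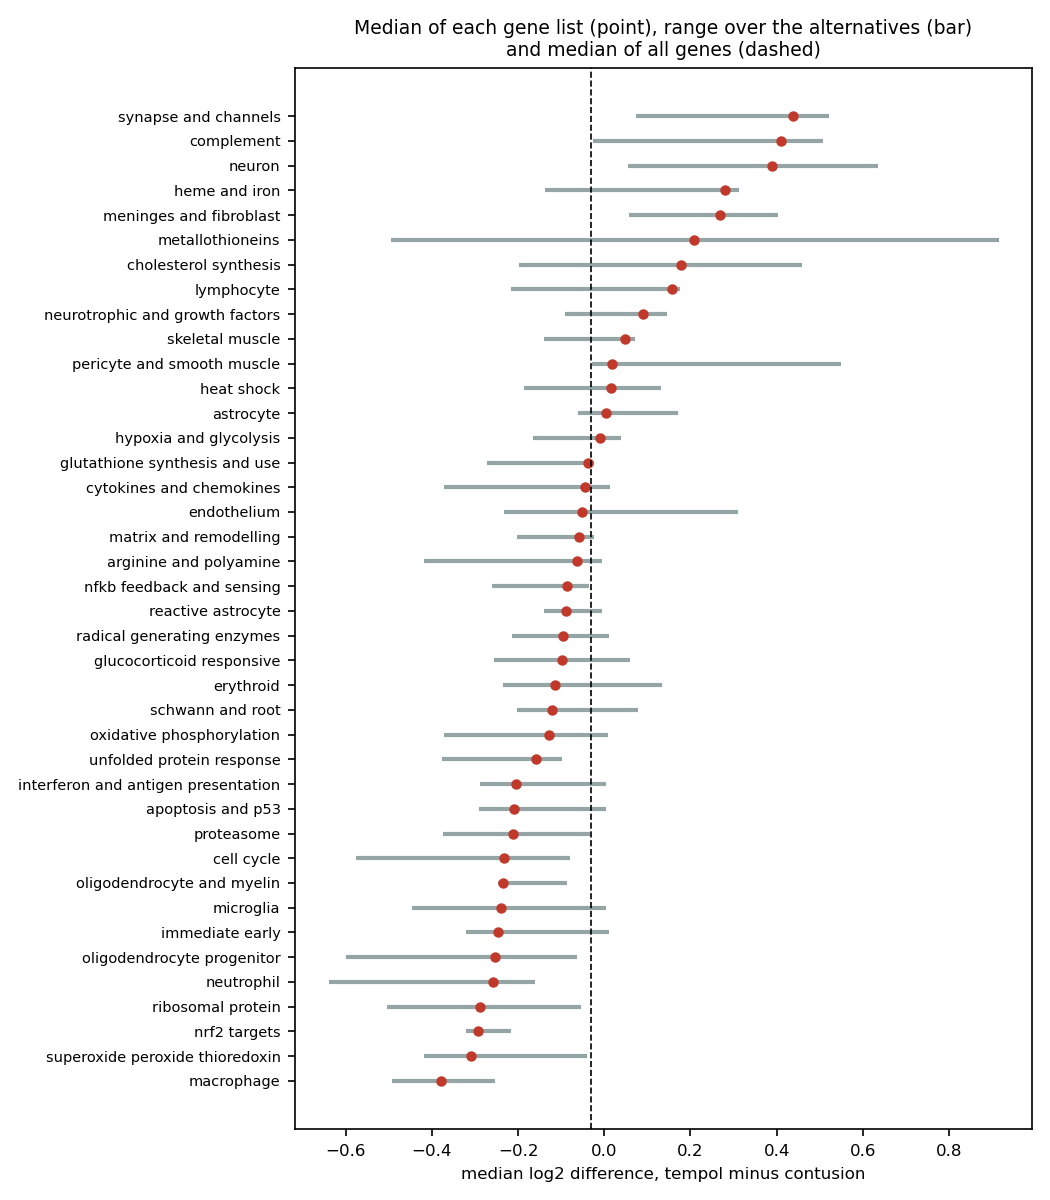
Median log2 difference, tempol minus contusion, of each of 40 gene lists (points), with the median of all genes (dashed line, -0.03). Bars give the range over 11 alternative settings, without array weights. Medians run from -0.38 for macrophage genes to 0.44 for synapse and channel genes, and the bars of 18 lists stay on one side of 0.

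Over all 40 lists 734 of 830 genes were measured and 0 passed the test. An unadjusted p below 0.05 was reached by 19 of them, 6 higher and 13 lower with tempol, where 1.56% and 1.27% of all genes reached it in these directions. The medians were above 0 for 13 lists and below 0 for 27. The mean signals of the 5 arrays separated the groups for 4 lists that were higher with tempol and for 9 that were lower, and overlapped for 27. The higher ones were synapses and channels, pericytes and smooth muscle, meninges and fibroblasts, and neurotrophic and growth factors. The lower ones were glutathione, NRF2 targets, heme and iron, macrophages, and NF-kB feedback and sensing. Immediate early genes, apoptosis and p53, erythroid genes, and matrix and remodelling were lower too. The heme and iron list nevertheless had a median of 0.28. Of single genes 7.76% and 8.61% had these arrangements, and some genes belong to several lists.

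The genes with the smallest p-values had varied known roles. Among those higher with tempol on every array, Lsm12, an RNA-binding protein, came first, with signals of 361.6, 140.6 and 146.8 with tempol, against 18.8 and 39.1 with contusion (2.85 ± 0.62). Other probe sets of Lsm12 gave 0.14 ± 0.48 and -0.50 ± 0.83. Their geometric means over all arrays were 372.9 and 156.8, against 150.9 for the first. Lpcat4, an acyltransferase that rebuilds membrane phospholipids, had 1636.2, 329.1 and 835.0 with tempol, against 74.9 and 100 with contusion (3.15 ± 0.76). Tpsb2, a tryptase of mast cell granules, had 629.5, 868.5 and 486.2 with tempol, against 274.7 and 76.0 with contusion (2.15 ± 0.61).

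The others of the 12 higher genes were Nmu, the neuropeptide neuromedin U, Plcxd2, Rev1, a DNA polymerase that bypasses damaged bases, Dnah2, an axonemal dynein, Micalcl, Kcng2, a modifying subunit of potassium channels, Znrf1, a ubiquitin ligase, Galnt4, an enzyme of O-linked glycosylation, and Ctc1, a telomere protein. Their differences lay between 1.52 and 2.99, and unadjusted p-values of the 12 between 0.00021 and 0.00297. Rev1, for example, had 104.4, 109.0 and 148.0 with tempol, against 34.4 and 28.0 with contusion, while its other probe set, brighter over all arrays, gave -0.52 ± 0.62. Other probe sets gave 0.64 for Plcxd2, -0.49 and 0.30 for Kcng2, and -1.84 and 0.88 for Znrf1, the last brighter than the named one.

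Among genes lower with tempol on every array, Spns1, a transporter of lysophospholipids out of lysosomes, had 87.3, 88.6 and 88.0 with tempol, against 552.9 and 976.2 with contusion (-3.06 ± 0.73). Its geometric means in the remaining groups were 97.0 to 153.4, well below the contusion arrays. Leaving out laminectomy 2 and normal 1 gave 92.6 and 102.7 for these groups, in place of 150.7 and 153.4. Tek, the angiopoietin receptor TIE2 of endothelium, showed the opposite arrangement. It had 50.2, 77.5 and 112.5 with tempol, against 307.8 and 449.5 with contusion (-2.29 ± 0.63), and the other groups had geometric means of 190.7 to 357.2 (laminectomy 175.7 and normal cord 208.1 without the 2 arrays).

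Creg1, a lysosomal glycoprotein, was lower with both of its probe sets, with differences of -1.67 ± 0.53 and -1.30 ± 0.57. The first had 58.8, 241.6 and 219.6 with tempol, against 391.3 and 553.2 with contusion. Kmt2a, a histone methyltransferase, was lower with one probe set (-1.61 ± 0.48), while 3 others gave -0.33, 0.67 and 0.48. The remaining 8 of the 12 lower genes were Rbp2, a retinol-binding protein, Usp20, a deubiquitinase, Ambn, known as an enamel protein, Heyl, a target of Notch signalling, Hcrt, the orexin precursor known from the hypothalamus, Sart1, a splicing factor, Arhgap9, and Sik2, a kinase. Other probe sets gave -0.01 and -0.95 for Usp20, 0.69 for Heyl and -0.55 for Sik2. Those of Usp20 and Sik2 were brighter over all arrays than the named ones. The 8 differed by -3.18 to -1.70, and unadjusted p-values of the 12 lay between 0.00049 and 0.00538.

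A second comparison set the tempol arrays against the mean of the clenbuterol, X-ray, BSO and tempol plus BSO groups, with no use of the contusion arrays. It passed 0 of 31042 probe sets (0.0%), with 1504 (4.85%) at an unadjusted p below 0.05 and a smallest adjusted p of 0.469. The tempol arrays lay above all 11 other treated arrays in 40 probe sets (0.129%) and below all of them in 93 (0.3%). The lowest p-value among named genes was that of Cib2, a calcium-binding protein, with 57.1, 39.7 and 27.7 with tempol and geometric means of 195.0 with tempol plus BSO, 149.3 with BSO, 235.3 with clenbuterol and 207.4 with X-rays (-2.29 ± 0.41, limma, adjusted p = 0.469).

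The same tempol arrays enter both comparisons, so values of 1 gene are given side by side and support nothing in each other. Tek differed by -1.91 ± 0.45 from the other treated groups and Tpsb2 by 1.82 ± 0.43 (limma, adjusted p = 0.701 for each), against -2.29 and 2.15 from contusion alone. Usp20 differed by -2.03 ± 0.42, Rev1 by 1.29 ± 0.38 and the second Creg1 probe set by -2.06 ± 0.41. In contrast, Lsm12 differed from the other treated groups by 0.17 ± 0.45 and Spns1 by -0.31 ± 0.52. Xrcc3, of homologous DNA repair, and Sord, the sorbitol dehydrogenase, lay outside the other treated arrays (1.99 ± 0.45 and -2.11 ± 0.43) and had differences from contusion of 0.83 ± 0.63 and -0.72 ± 0.60. The remaining genes whose tempol arrays lay outside all 11 and had the smallest p-values were Rpp25, Chst12 and Ceacam15l1, higher by 1.30 to 1.84, and Kmt2a and Fam98b-ps1, at -1.70 and -1.90. Second probe sets of Chst12 and Sord, brighter over all arrays, lay on the other side of 0 against contusion (-1.86 ± 0.71 and 1.29 ± 0.82).

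Tempol was also given to rats that had received BSO, on 6 arrays that enter neither group of the first comparison. Tempol plus BSO minus BSO passed 0 of 31042 probe sets (0.0%), with 1283 (4.13%) at an unadjusted p below 0.05 and a smallest adjusted p of 0.409. Of the 12 genes higher with tempol alone 9 were also higher here and 3 lower, from -0.53 to 1.34 with a median of 0.23. Of the 12 lower genes 7 were also lower and 5 higher, from -0.64 to 1.00 with a median of -0.13. None of the 24 had an unadjusted p below 0.05 here. Among all probe sets 49.3% had the same direction in both comparisons, and 400 of the 875 (45.7%) with an unadjusted p below 0.05 in the first.

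**Figure D5:**
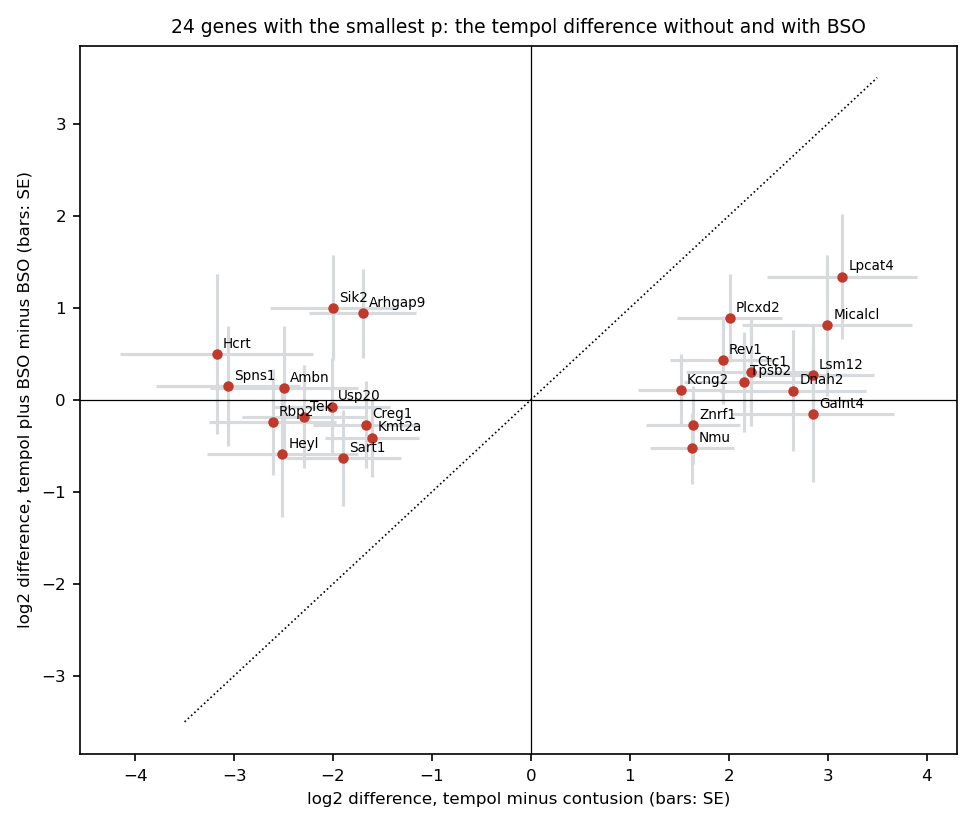
Log2 difference with SE of the 24 genes with the smallest p, tempol minus contusion on the horizontal axis and tempol plus BSO minus BSO on the vertical axis. The dotted line marks equal differences. Vertical values lie between -0.64 and 1.34 while horizontal ones reach -3.18 and 3.15, and the genes were chosen for the horizontal value.

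Lpcat4 had the largest value among them, 1.34 ± 0.68. Its geometric means were 501.0 with tempol plus BSO and 198.0 with BSO alone, beside 766.1 with tempol and 86.5 with contusion. Tek differed by -0.18 ± 0.56 and Tpsb2 by 0.20 ± 0.54. The list medians in rats given BSO were -0.03 for neuron genes, 0.10 for NRF2 targets and 0.04 for macrophage genes.

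Whether the tempol difference itself changed with BSO was tested as an interaction, tempol minus contusion less tempol plus BSO minus BSO. It passed 0 of 31042 probe sets (0.0%), with 1068 (3.44%) at an unadjusted p below 0.05 and a smallest adjusted p of 0.4965. Since the 24 genes were chosen for a small p in the first comparison, which is part of the interaction, their own interaction values were only described: 9 of the 12 higher and 8 of the 12 lower had an unadjusted p below 0.05.

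Some list genes ran in opposite directions without and with BSO, and such a change was common. Of all probe sets 49.3% had the same direction in both comparisons. Of the 875 with an unadjusted limma p below 0.05 in the first, 45.7% did. The genes described here are examples with large differences. Herpud1, a protein of the endoplasmic reticulum stress response, had 51.4, 42.6 and 59.4 with tempol, against 122.5 and 134.9 with contusion (-1.34 ± 0.51). With BSO it was higher with tempol, by 1.92 ± 0.46 (limma, adjusted p = 0.905). Its geometric means were 105.5 with tempol plus BSO and 27.8 with BSO alone, and the interaction was -3.27 ± 0.68, not past the threshold after adjustment.

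Ngfr, the low-affinity neurotrophin receptor p75, had 101.7, 103.3 and 93.8 with tempol, against 21.2 and 13.9 with contusion (2.54 ± 0.68). In rats given BSO it differed by -1.52 ± 0.61, with geometric means of 24.7 with tempol plus BSO and 70.6 with BSO alone. Its interaction of 4.05 ± 0.91 did not pass after adjustment. The contusion signals of Ngfr are low. On all 5 compared arrays both Ngfr and Herpud1 lay below the median probe set, which stood at 147.3 to 158.8. So did Gsta3 on the tempol arrays, at 10.5 to 42.0. Ier2, an immediate early gene, differed by -2.56 ± 0.82 without BSO and by 1.51 ± 0.74 with it.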

How the data were processed

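Total RNA of rat spinal cord was measured on 22 Affymetrix arrays, 1 per sample. The deposited values are 1 signal intensity per probe set on a linear scale, from 0.3 to 154527.2. The submitters' processing notes name RMA, but the deposited intensities are not logarithmic, and every array has a trimmed mean of 250.0 or 250.1, a global scaling. They were used as deposited after a log2 transform.

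Of 31099 probe sets 57 controls were left out, with the 2 empty cells in the table among them, and 31042 were tested. A single gene symbol belongs to 20826 of them, several symbols to 436 and no symbol to 9780. Symbols were updated from RefSeq (assembly GRCr8) by Entrez number for 20758. A gene in a list was read from its probe set with the highest mean. No sequence was printed, because no result rests on one.

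All arrays entered 1 limma fit (R 4.3.3, limma 3.58.1) with 8 group means and eBayes, so that small groups borrow the spread of all others (14 residual degrees of freedom and 4.713 added by moderation). Two-sided p-values were adjusted by the Benjamini-Hochberg method across the 31042 probe sets and called at 0.05. Values after ± are standard errors and intervals are 95% intervals of the fit. Fold changes are 2 to the power of the log2 difference. The fit was tested on simulated data.

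The comparison and the 40 gene lists were chosen with earlier results of these data known. Named are up to 30 genes past the threshold (there were none), the 12 higher and 12 lower genes with the smallest p among those whose tempol and contusion arrays do not overlap and whose higher group averages a signal of at least 100, up to 4 genes per list with the smallest p, 30 preset genes, and 6 higher and 6 lower genes by the same rule against the other treated arrays. Other genes of the lists were picked after their values were seen. A synonym in the myelin list had matched a wrong gene; it was corrected after the values were seen, which left 19 genes in place of 20.

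Laminectomy 2 and normal 1 stood apart, correlating with the rest at a median of 0.667 and 0.685, where all others reached at least 0.725. They are in none of the compared groups, but enter the spread and the laminectomy and normal means, which are given with and without them. Alternatives were quantile normalization, a filter on mean signal below 100, log2 of signal plus 32, array weights, robust eBayes with a trend, replicate numbers as a block, leaving the uncompared groups out of the fit, leaving those 2 arrays out, leaving out each array, the mean over all probe sets of a gene, and, added after the data were seen, the hybridization spikes as a covariate.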

Additional observations from a re-analysis of the deposited data

How the results depend on the processing

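No gene passed between tempol and contusion under any setting, except when 1 array was left out: the count was 0 to 1 over these fits, with 1 without tempol 2 (1397676_at, -4.03, limma, adjusted p = 0.0439) and 1 without contusion 1 (1398301_at, 4.29, adjusted p = 0.0275, whose contusion signals were 819.8 and 18.6). Tempol minus the other treated groups also gave 0 to 1 (1397676_at without tempol 2, adjusted p = 0.00194), and tempol plus BSO minus BSO 0 to 1 (1398338_at without BSO 3, and Cinp without tempol plus BSO 2). The interaction stayed at 0 throughout. A group of 2 left with 1 array is assumed to vary like the others. Replicate numbers are shared by the groups. Deviations of same-numbered arrays correlated at 0.098 and 0.045, and those of arrays with unlike numbers at -0.098 to 0.051. With only 2 contusion arrays the deviations of one mirror those of the other. Over 2 pairs this cannot decide whether the numbers pair the samples. The hybridization spikes were lowest on array 1 of the tempol, contusion, BSO and laminectomy groups (10.54, 10.64, 10.48 and 10.71). In the tempol plus BSO, clenbuterol and normal groups another array was lowest. In the X-ray group arrays 1 and 3 were nearly equal (11.6086 and 11.6091) and array 2 was higher (12.08). Whether same-numbered arrays share a batch was not tested. With the replicate block 0 probe sets passed and 881 had an unadjusted p below 0.05, beside 875.

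Over all 201 named genes, of which 24 were chosen for arrays that do not overlap, 49 of 2785 values, in 35 genes, changed direction, none past the threshold under either setting. Of 40 lists 18 kept the sign of their median over 11 alternatives, 3 above and 15 below 0. Of the 440 medians 63 moved by more than 1 SD of the list's array means. Array weights were not among the alternatives used for the lists. Leaving out single arrays moved the medians of 25 lists, whose ranges were -0.201 to -0.030 for glutathione synthesis and use, -0.418 to -0.041 for superoxide, peroxide and thioredoxin, -0.138 to 0.296 for heme and iron, -0.186 to 0.132 for heat shock, -0.372 to 0.014 for cytokines and chemokines, -0.640 to -0.160 for neutrophil, -0.446 to 0.003 for microglia, -0.216 to 0.134 for lymphocyte, -0.288 to 0.003 for interferon and antigen presentation, -0.261 to -0.036 for NF-kB feedback and sensing, -0.320 to -0.113 for immediate early, -0.256 to 0.059 for glucocorticoid responsive, -0.165 to 0.039 for hypoxia and glycolysis, -0.290 to 0.004 for apoptosis and p53, -0.576 to -0.079 for cell cycle, 0.056 to 0.636 for neuron, 0.074 to 0.521 for synapse and channels, -0.232 to 0.311 for endothelium, -0.029 to 0.550 for pericyte and smooth muscle, -0.236 to 0.135 for erythroid, -0.202 to -0.028 for matrix and remodelling, -0.419 to -0.014 for arginine and polyamine, -0.198 to 0.460 for cholesterol synthesis, -0.082 to 0.146 for neurotrophic and growth factors, 0.057 to 0.403 for meninges and fibroblast. Of other lists with a median in the text, ranges were -0.237 to -0.087 for myelin (highest without tempol 1), -0.139 to -0.005 for reactive astrocytes (highest without tempol 1), -0.215 to -0.001 for radical-generating enzymes (lowest without contusion 1, highest without tempol 3), -0.059 to 0.172 for astrocytes, -0.463 to -0.253 for macrophages and -0.308 to -0.216 for NRF2 targets. Other settings that moved a median were the filter on low signal (synapses and channels 0.296, apoptosis -0.100, pericytes 0.355, arginine and polyamine -0.217, neurotrophic factors -0.091), the mean over probe sets (glutathione -0.273, immediate early genes 0.011, arginine and polyamine -0.006, neurotrophic factors 0.000), the replicate block (glucocorticoid-responsive genes -0.227, arginine and polyamine -0.126) and log2 of signal plus 32 (heme and iron 0.207). The median unadjusted 95% interval was 3.0-fold to either side, and a call after adjustment needs more.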

Other observations

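Blood vessel genes not described above lay on both sides. Plvap, a protein of leaky endothelium, had signals of 355.6, 411.9 and 549.8 with tempol, against 226.4 and 168.4 with contusion (1.15 ± 0.53), while Tek was lower. Pdgfrb, the receptor that marks pericytes, had 823.2, 414.5 and 1126.5 with tempol, against 240.3 and 155.3 with contusion (1.91 ± 0.96), and its 2 other probe sets gave 0.92 ± 0.83 and 0.77 ± 0.87. Of 21 endothelial genes 10 were higher and 11 lower (median -0.05), and none passed the test.

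The lists of cholesterol synthesis and of the cell cycle held large differences in both directions. Srebf1, the transcription factor of lipid synthesis, had 488.9, 397.0 and 258.9 with tempol, against 2484.3 and 1395.2 with contusion (-2.33 ± 0.88), and Fdps, an enzyme of cholesterol synthesis, differed by 1.60 ± 0.65. Among cell cycle genes Mcm6 and Tyms, both of DNA replication, differed by -2.52 ± 0.97 and -2.07 ± 0.80, and Cdc20, of mitosis, by 1.84 ± 0.92, while its 4 other probe sets gave -0.05 to 0.94. Of 31 cell cycle genes 22 were lower and 9 higher (median -0.23).

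Of the probe sets without 1 gene symbol, those with the smallest p were, higher with tempol, 1395209_at (3.41 ± 0.80) and 1389982_at (2.06 ± 0.49), and, lower, 1397676_at (-2.96 ± 0.75) and 1383027_at (-2.27 ± 0.60), the last with 121.4, 98.5 and 130.4 with tempol, against 528.2 and 595.9 with contusion.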
